A study of Mus musculus with 12 samples.

Results

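Nox1, Noxo1, Noxa1, Duox2, Duoxa2, Nos2, Gpx1, Gpx2, Cat and Prdx6 are the genes through which the epithelium of the colon makes and removes reactive oxygen and nitrogen species. They were taken by gene symbol and are 10 of the 55376 genes in the count table. Their RNA was compared in the proximal colon of 6 EPR cKO and 6 EPR fl/fl mice, all 12 weeks old, with 1 RNA-Seq library per animal. EPR is a long noncoding RNA of epithelial tissues. EPR fl/fl mice carry loxP sites around the promoter and exon 1 of EPR on both alleles and served as controls, and their genotype is given in the labels as wt. EPR cKO mice carry the same floxed alleles and, in addition, a Cre recombinase driven by the CDX2 promoter, which is active in epithelial cells of the lower ileum and the large intestine. Only EPR cKO mice carry Cre, so that the transgene and the loss of EPR cannot be told apart. The whole wall of the organ was used, so that epithelium, muscle and other cells are mixed, and in such tissue fewer cells of a type and less RNA per cell cannot be told apart.

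Of the 10 genes, only Nox1 passed the test, and it was higher in EPR cKO. Of all genes tested, 0.884% were called higher and 1.57% lower. Nox1 rose 2.28-fold, but passed in only 2 of 12 fits that left out 1 library, and not with a covariate for tissue composition. The genes for its organizer, Noxo1, and its activator, Noxa1, did not pass. Within a library both fell relative to Nox1, as a gene without change would. Gpx2 and Prdx6 had higher means in EPR cKO without passing after adjustment. Duox2, Duoxa2 and Nos2 varied widely between mice of both groups and did so together.

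NADPH oxidases are membrane enzymes that pass electrons from NADPH to oxygen. NOX1, the main oxidase of colon epithelium, yields superoxide and needs the organizer NOXO1 and the activator NOXA1. DUOX2 releases hydrogen peroxide at the luminal surface and leaves the endoplasmic reticulum only with its maturation factor DUOXA2, whose gene lies beside it in the opposite orientation. NOS2, the inducible nitric oxide synthase, is switched on by cytokines and bacterial products and is a classical marker of colitis. The glutathione peroxidases GPX1, found in most cells, and GPX2, of gastrointestinal epithelium, reduce peroxides with glutathione. Catalase, encoded by Cat, splits hydrogen peroxide in peroxisomes, and peroxiredoxin 6, encoded by Prdx6, reduces phospholipid hydroperoxides.

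The promoters of 4 of the genes are printed because Nox1 was the gene that passed, Gpx2 came next to it among the genes with higher means, and Duox2 with Duoxa2 is the divergent pair whose RNA rose and fell together between mice. Each run holds 300 bases from RefSeq (GRCm38.p6), read 5′ to 3′ on the strand of the gene, with the start site at base 251. Promoters of 8 of the 10 genes were found there. Letters in capitals are matches on either strand. TTTATG stands for a site of the CDX homeobox factors of the intestine. For the liver and gut factor HNF1, the half-site searched was GTTAAT. The letters of the TATA box, which positions transcription at many promoters, were TATAAA. The windows are chrX:134111805-134112104 (minus strand) for Nox1, chr12:76795505-76795804 (minus) for Gpx2, chr2:122298178-122298477 (minus) for Duox2 and chr2:122298650-122298949 (plus) for Duoxa2.
Nox1: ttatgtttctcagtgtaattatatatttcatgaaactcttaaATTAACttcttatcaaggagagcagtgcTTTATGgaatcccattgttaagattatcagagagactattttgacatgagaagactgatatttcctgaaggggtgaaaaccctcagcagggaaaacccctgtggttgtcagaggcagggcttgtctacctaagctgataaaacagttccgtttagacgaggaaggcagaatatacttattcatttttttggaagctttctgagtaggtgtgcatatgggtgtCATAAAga
Gpx2: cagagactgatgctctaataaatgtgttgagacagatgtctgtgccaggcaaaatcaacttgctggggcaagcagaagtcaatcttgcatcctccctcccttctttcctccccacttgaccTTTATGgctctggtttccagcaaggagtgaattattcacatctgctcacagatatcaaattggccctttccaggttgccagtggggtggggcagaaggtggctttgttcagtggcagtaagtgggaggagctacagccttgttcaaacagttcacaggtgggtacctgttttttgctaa
Duox2: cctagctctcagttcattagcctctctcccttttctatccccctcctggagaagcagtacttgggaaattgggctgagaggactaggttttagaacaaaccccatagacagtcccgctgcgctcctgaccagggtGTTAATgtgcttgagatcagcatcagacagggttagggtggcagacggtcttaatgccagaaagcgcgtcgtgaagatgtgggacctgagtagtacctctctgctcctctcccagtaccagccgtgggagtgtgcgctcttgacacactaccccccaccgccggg
Duoxa2: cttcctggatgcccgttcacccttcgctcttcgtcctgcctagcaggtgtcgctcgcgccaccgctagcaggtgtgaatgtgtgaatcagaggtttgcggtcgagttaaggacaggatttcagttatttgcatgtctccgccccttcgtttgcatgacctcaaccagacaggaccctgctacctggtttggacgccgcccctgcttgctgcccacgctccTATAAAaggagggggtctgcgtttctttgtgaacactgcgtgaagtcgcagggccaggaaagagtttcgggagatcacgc
The CDX letters stood at position −180 of Nox1, counted from the start site, and on the opposite strand at 42, and at −129 of Gpx2. The HNF1 half-site was read on the opposite strand at −208 of Nox1 and on the gene strand at −115 of Duox2. The TATA box stood at −30 of Duoxa2. Of 32851 promoters of the same length, 11.9% held the CDX letters, 7.1% the HNF1 half-site and 13.6% the TATA box. Further motifs were searched on both strands. The GATA site, AGATAA, was held by 11.2% of promoters and, among the 8 promoters here, by Noxa1 at −73. The STAT site, TTCNNNGAA, was held by 8.3% of promoters, and the core of the antioxidant response element, TGACNNNGC, by 12.4%, and neither was read in the 8. A match is a description of these letters and not a binding site.

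The libraries held 13093904 to 33211041 counts. EPR, listed as Smim31, had 297 to 1474 counts among controls against 0 to 10 in EPR cKO, so that each library followed its label. All 12 libraries had Xist at 0 to 0.195 CPM and the Y-linked Ddx3y at 46.2 to 85.9 CPM, the pattern of male tissue. CPM stands for counts-per-million of the reads assigned to genes, scaled by the trimmed mean of M values (TMM). EPR cKO 1 stood apart, with a sum of 8 smooth muscle markers of 8552 CPM where the remaining EPR cKO libraries held 930 to 2479 CPM and the controls 2836 to 4980 CPM. Results that rest on it are therefore given with and without it, except in the search for the genes most like each of the 10.

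Per length of exon, the order of the 10 genes in EPR fl/fl colon ran from peroxide removal down to oxidases. Prdx6 was at 253 ± 39.5 CPM per kb (SD, n = 6), Gpx1 at 140 ± 12.6 and Gpx2 at 115 ± 14.5. Cat followed at 39.6 ± 6.81 CPM per kb, Duox2 at 33.0 ± 7.98, Noxa1 at 25.5 ± 5.32, Noxo1 at 22.7 ± 4.35 and Duoxa2 at 18.2 ± 9.99. The least abundant were Nox1 at 5.03 ± 1.13 CPM per kb and Nos2 at 1.36 ± 1.04. The ranges over libraries of neighbours in this order overlapped, except between Prdx6 and Gpx1, between Gpx2 and Cat and between Nox1 and Nos2. In EPR cKO the levels per kb were 336 ± 94.0 for Prdx6, 187 ± 67.6 for Gpx2, 156 ± 15.7 for Gpx1 and 11.5 ± 3.88 for Nox1, the last still the second lowest.

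The genes of the NOX1 complex were compared next, in TMM-scaled CPM per gene. Nox1 (chromosome X, 134086421 to 134111854, minus strand, mm10) ran from 10.2 to 16.8 CPM in EPR fl/fl, with a median of 12.4, and from 11.0 to 39.3 CPM in EPR cKO, with a median of 32.8. In 5 of the 6 EPR cKO libraries Nox1 lay above every control, at 26.5 CPM or more, and EPR cKO 1 (11.0 CPM) lay inside the control range. The mean went from 12.9 ± 2.89 to 29.4 ± 9.95 CPM (SD, n = 6), a log2 fold change of 1.19 (SE 0.25, 95% interval 0.63 to 1.75). The adjusted p was 0.0259 by edgeR's quasi-likelihood test with Benjamini-Hochberg adjustment over 15952 genes. Among all genes tested, 2.46% were called at an adjusted p under 0.05, 0.884% higher and 1.57% lower, and among the 10 genes 1 was called higher and 0 lower. At an unadjusted p under 0.05, 3 of the 10 were higher (Nox1, Gpx2 and Prdx6), against 11.1% of all genes, and 0 were lower. DESeq2 and limma-voom also called Nox1 alone of the 10, where they called 5.72% and 3.15% of all genes. With quality weights limma-voom called Nox1 and Gpx2, and 20.5% of all genes, so that 2 of 10 was near the share over the whole table. Each of these tools called 0 of the 10 lower. None of the 10 had groups that did not overlap, against 2.47% of all genes, and their median log2 fold change was 0.05, against 0.02 for all genes.

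The call of Nox1 depended on the fit. It held in 9 of 10 alternatives that kept all libraries, but not with the composition score, described with its limits below, as a covariate (log2 fold change 0.56, adjusted p = 0.191). Of the 12 fits that left out 1 library, it passed 0.05 without EPR cKO 1 (1.34, adjusted p = 0.000252) and without EPR fl/fl 6 (1.28, 0.0283), while the other 10 gave log2 fold changes of 1.10 to 1.25 and adjusted p-values of 0.0504 to 0.0727.

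Noxo1 (chromosome 17, 24696234 to 24700529, plus strand) ran from 36.6 to 65.4 CPM in EPR fl/fl, with a median of 52.6, and from 36.0 to 74.8 CPM in EPR cKO, with a median of 66.6. The groups overlapped, and the lowest value of all was that of EPR cKO 1. Its log2 fold change stood at 0.31 (SE 0.17, adjusted p = 0.347). Noxo1 passed without EPR cKO 1 (0.41, adjusted p = 0.0246), and was at −0.04 with the composition covariate. Noxa1 (chromosome 2, 25085667 to 25095149, minus strand) ran from 33.2 to 53.3 CPM, median 38.0, in EPR fl/fl and from 22.1 to 46.5 CPM, median 41.6, in EPR cKO. EPR cKO 1 was again the lowest and the other 5 EPR cKO libraries lay within the control range. Its log2 fold change stood at −0.06 (SE 0.18, 95% interval −0.45 to 0.33, adjusted p = 0.862), and its sign turned without EPR cKO 1 (0.04).

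**Figure D1:**
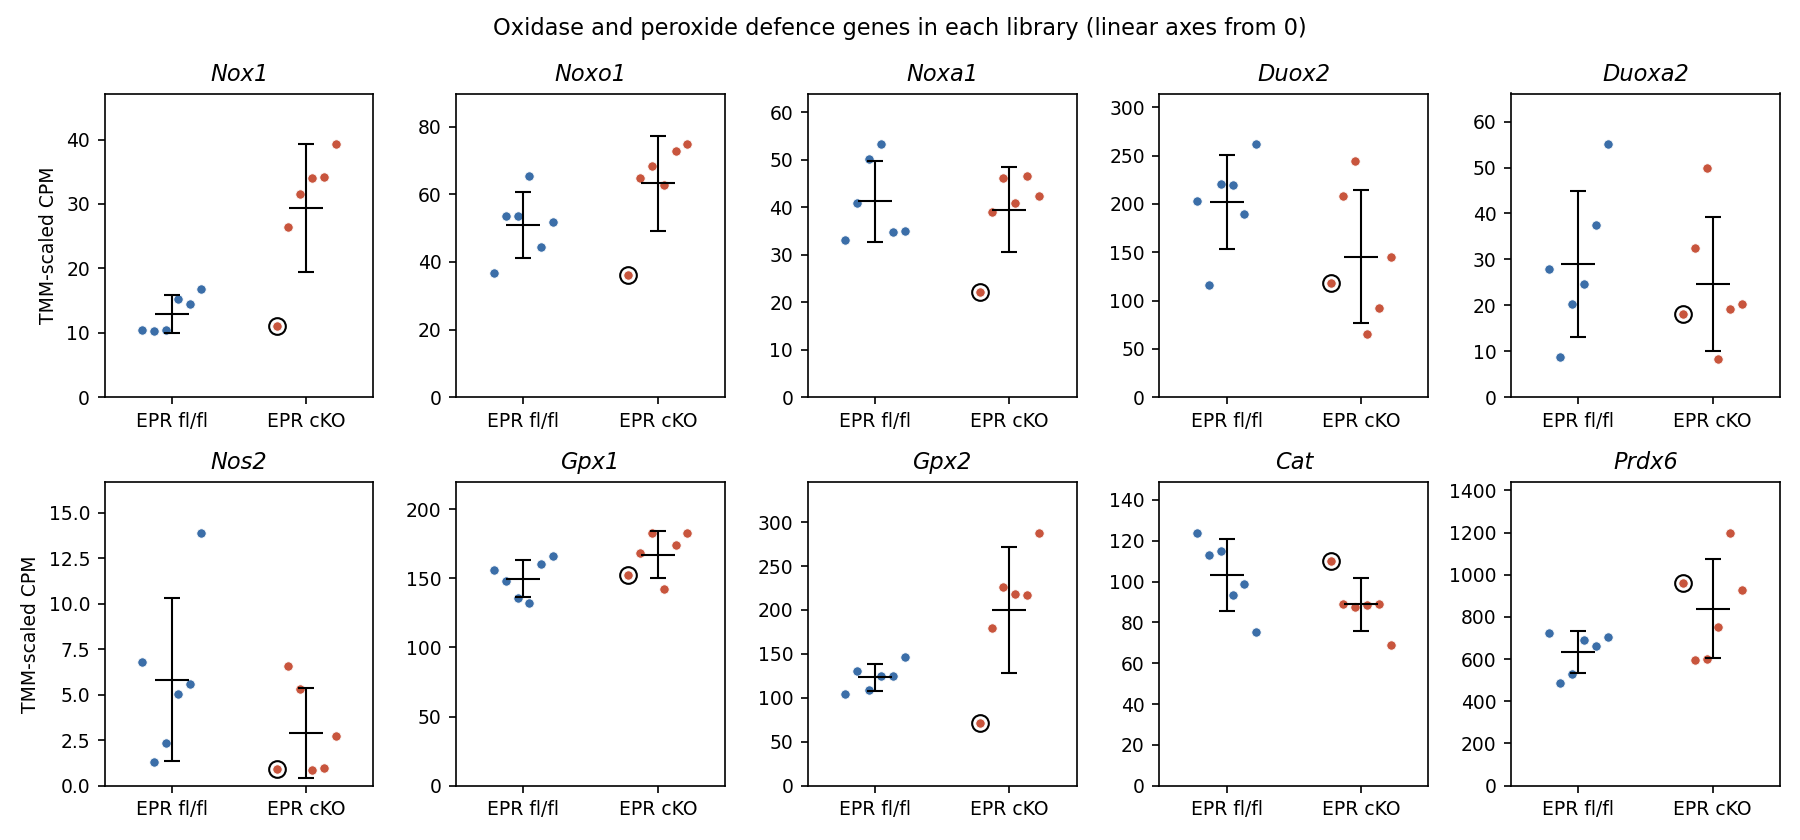
Each panel plots 1 gene in TMM-scaled CPM on a linear axis from 0, with 1 point per library (6 EPR fl/fl, 6 EPR cKO), a long bar at the mean, whiskers of 1 SD and a ring around EPR cKO 1. For Nox1, 5 of 6 EPR cKO points lie above all controls, and for Noxo1, Noxa1 and Gpx2 the ringed point is the lowest of its group.

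Both genes of a ratio come from the same library, so that the ratio of a partner to Nox1 does not depend on how libraries were scaled. Per length, the log2 ratio of Noxa1 to Nox1 ran from 1.72 to 2.92 in EPR fl/fl and from 0.77 to 1.67 in EPR cKO, with no overlap. It fell by 1.19, from 2.34 ± 0.45 to 1.15 ± 0.31 (SD, n = 6, two-sided exact permutation p = 0.00216, the smallest that the 924 assignments allow, adjusted p = 0.00866 over 4 ratios). In EPR fl/fl colon RNA of the activator exceeded that of the oxidase by a wider margin than in any EPR cKO library. Noxa1 itself stood at −0.06 and the median of all genes at 0.02, so that this fall repeats the rise of Nox1. A gene without change would fall by about as much, and ratios of other genes to Nox1 were not examined. The log2 ratio of Noxo1 to Nox1 fell by 0.82, from 2.18 ± 0.35 to 1.36 ± 0.30 (exact p = 0.00649, adjusted p = 0.013). Its groups overlapped through EPR cKO 1, at 1.91, since the remaining EPR cKO libraries ran from 1.08 to 1.49 and the controls from 1.82 to 2.58. Without EPR cKO 1 the differences were −1.29 for Noxa1 and −0.92 for Noxo1 (exact permutation, adjusted p = 0.00577 each).

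Neighbouring genes limit how these genes can be read. Exons of Tbl3 on the opposite strand cover 60.2% of the exon bases of Noxo1, exons of Cstf2 cover 15.6% of Nox1 and exons of Entpd8 cover 3.09% of Noxa1. Cstf2 went from 42.1 to 50.7 CPM (log2 fold change 0.27, adjusted p = 0.208) and Tbl3 from 22.4 to 25.6 CPM (0.20, adjusted p = 0.415). Of 408 genes whose exon bases all lie under exons of 1 gene on the opposite strand, 291 had at least 1 count over the 12 libraries and 44 had at least 100. Duoxa1 covers 42.8% of the exon bases of Duoxa2 on the opposite strand and averaged 0.225 CPM in EPR fl/fl against 0.145 CPM in EPR cKO, where Duoxa2 averaged 29.0 and 24.7 CPM. Whether reads were counted by strand is not given in the sources used here, so that reads from the shared stretches may belong to either gene of a pair.

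Duox2, Duoxa2 and Nos2, genes that inflammation is known to raise in the gut, had lower means in EPR cKO and did not pass, and the sign for Duoxa2 was not stable. Duox2 (chromosome 2, 122279247 to 122298449, minus strand) ran from 116 to 262 CPM in EPR fl/fl, median 211, and from 65.3 to 244 CPM in EPR cKO, median 132. EPR cKO 4 (65.3 CPM) and EPR cKO 5 (92.1 CPM) lay below all controls, and the other 4 lay among them. Its log2 fold change stood at −0.47 (SE 0.29, 95% interval −1.12 to 0.17, adjusted p = 0.399). Duoxa2 (chromosome 2, 122298900 to 122302885, plus strand) ran from 8.75 to 55.1 CPM, median 26.3, in EPR fl/fl and from 8.25 to 50 CPM, median 19.7, in EPR cKO. The ranges were almost the same, and the difference of −0.23 on the log2 scale (SE 0.43, adjusted p = 0.789) had a 95% interval of −1.19 to 0.74. It turned to 0.06 without EPR fl/fl 6 and to 0.01 with the composition covariate. The starts of Duox2 and Duoxa2 lay 451 bases apart in the annotation of the count table and 673 bases apart in RefSeq, from which the promoters were taken, because RefSeq starts Duox2 at 122298227. The log2 ratio of Duoxa2 to Duox2 per length went from −1.02 ± 0.59 to −0.68 ± 0.29 (exact permutation p = 0.24), so that a change in the maturation factor relative to the oxidase was not detected.

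Nos2 (chromosome 11, 78920787 to 78960254, plus strand) was the least abundant of the 10 genes, with 17 to 260 counts per library. It ran from 1.30 to 13.9 CPM in EPR fl/fl, median 5.30, and from 0.847 to 6.56 CPM in EPR cKO, median 1.84. EPR cKO 1, 4 and 5 lay below all controls, at 0.933, 0.847 and 0.964 CPM, and no EPR cKO library reached the 2 highest controls. Its log2 fold change stood at −1.01 (SE 0.63, adjusted p = 0.411), and its 95% interval of −2.41 to 0.40 leaves a wide range of differences undetected. Without EPR fl/fl 6 the log2 fold change was −0.53 (adjusted p = 0.664).

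These 3 genes rose and fell together from mouse to mouse within each group. EPR fl/fl 2 and EPR cKO 4 were low in all 3, and EPR fl/fl 6 and EPR cKO 3 were high. After the group means were removed, log2 CPM of Duoxa2 and Nos2 correlated with Pearson r = 0.88 and Spearman rho = 0.92 over 12 libraries (permutation within groups, adjusted p = 0.00099 and 0.00108 over 9 relations). Duox2 and Duoxa2 gave r = 0.88 and rho = 0.77 (permutation, adjusted p = 0.00139 and 0.0163), and Duox2 and Nos2 gave r = 0.86 and rho = 0.85 (0.00193 and 0.0105). Without EPR fl/fl 2 and EPR cKO 4, the libraries farthest out, r was 0.85, 0.73 and 0.81 in the same order. The pairs were chosen after their values were seen, and the libraries share the mixture of tissues.

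**Figure D2:**
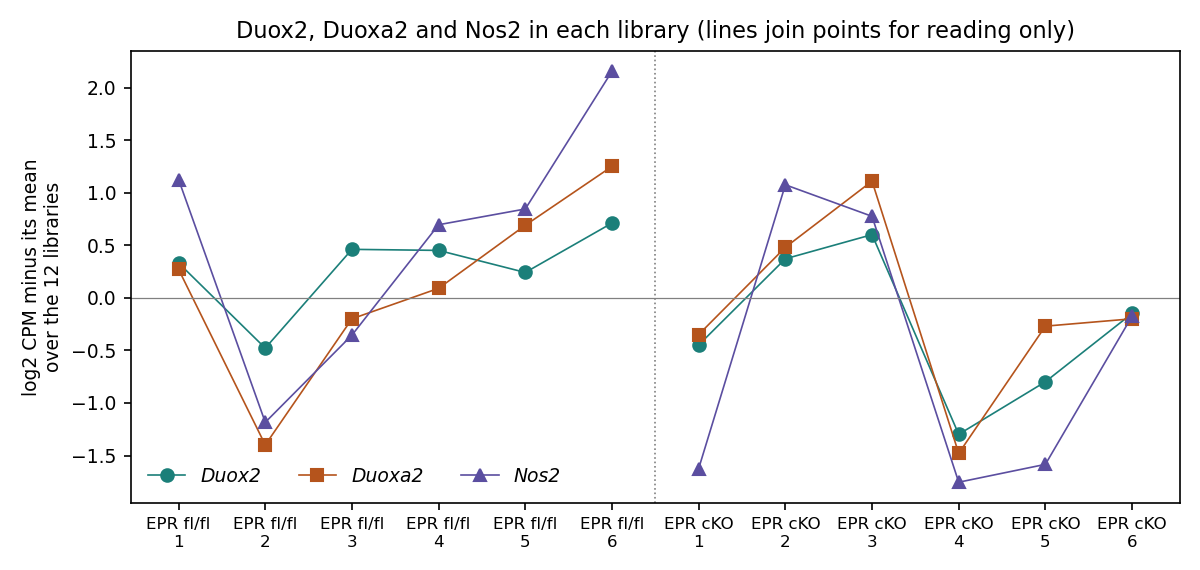
The plot gives log2 CPM of Duox2, Duoxa2 and Nos2 minus the mean of the gene over 12 libraries (vertical axis, log2 units) for each library (horizontal axis, EPR fl/fl on the left and EPR cKO on the right of the dotted line). The lines only join points, and the 3 genes dip together in EPR fl/fl 2 and EPR cKO 4.

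Among the genes of peroxide removal, Gpx2 and Prdx6 had the higher means in EPR cKO. Gpx2 (chromosome 12, 76792335 to 76795554, minus strand) ran from 104 to 146 CPM in EPR fl/fl, median 125, and from 71.5 to 288 CPM in EPR cKO, median 218. As with Nox1, Gpx2 lay above all controls in 5 EPR cKO libraries, at 179 CPM or more. In EPR cKO 1 Gpx2 lay below all controls, where Nox1 lay inside their range. The log2 fold change of Gpx2 stood at 0.70 (SE 0.24, unadjusted p = 0.012 and adjusted p = 0.154 by edgeR). Gpx2 passed without EPR cKO 1 (0.86, adjusted p = 0.00102), and with the composition covariate, whose limits are given below, it was at 0.02. Without EPR cKO 1, 21.8% of all genes tested were called, 7.44% higher and 14.4% lower, and of the 10 genes Nox1, Noxo1 and Gpx2 were called higher and 0 lower.

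Prdx6 (chromosome 1, 161240112 to 161251219, minus strand) ran from 489 to 723 CPM in EPR fl/fl, median 675, and from 598 to 1200 CPM in EPR cKO, median 839. Here EPR cKO 1 was among the 4 libraries above all controls, at 961 CPM, and EPR cKO 2 and 3 lay inside the control range. Its log2 fold change stood at 0.41 (SE 0.17, unadjusted p = 0.0362 and adjusted p = 0.241 by edgeR). Gpx1 (chromosome 9, 108339054 to 108340343, plus strand) had the narrowest spread of the 10 genes, from 132 to 166 CPM, median 152, in EPR fl/fl and from 142 to 183 CPM, median 171, in EPR cKO. The groups overlapped, and the difference was 0.16 on the log2 scale (SE 0.08, 95% interval −0.03 to 0.35, adjusted p = 0.327). Cat (chromosome 2, 103453849 to 103485160, minus strand) ran from 75.3 to 124 CPM, median 106, in EPR fl/fl and from 68.7 to 110 CPM, median 88.7, in EPR cKO. It was the 1 gene of peroxide removal with a lower mean, at −0.22 on the log2 scale (SE 0.13, adjusted p = 0.371).

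Within a library, the log2 ratio of Gpx2 to Gpx1 per length went from −0.28 ± 0.18 to 0.16 ± 0.64 (SD, n = 6, exact permutation p = 0.147, adjusted p = 0.196 over 4 ratios). It lay between 0.10 and 0.66 in 5 EPR cKO libraries, above all controls (−0.59 to −0.08), and at −1.08 in EPR cKO 1. Without that library the difference was 0.68 (exact permutation, adjusted p = 0.00577). After the group means were removed, Gpx2 correlated with Nox1 (r = 0.94, rho = 0.80, permutation adjusted p = 0.00193 and 0.0137), and r stayed at 0.90 without EPR fl/fl 2 and EPR cKO 1 and was 0.75 without EPR cKO 1 alone. The correlations of Noxo1 with Nox1 (r = 0.80, rho = 0.52, permutation adjusted p = 0.03 and 0.0941) and with Gpx2 (r = 0.83, rho = 0.52, 0.0199 and 0.0941) rested on EPR cKO 1, without which r was 0.39 and 0.45.

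**Figure D3:**
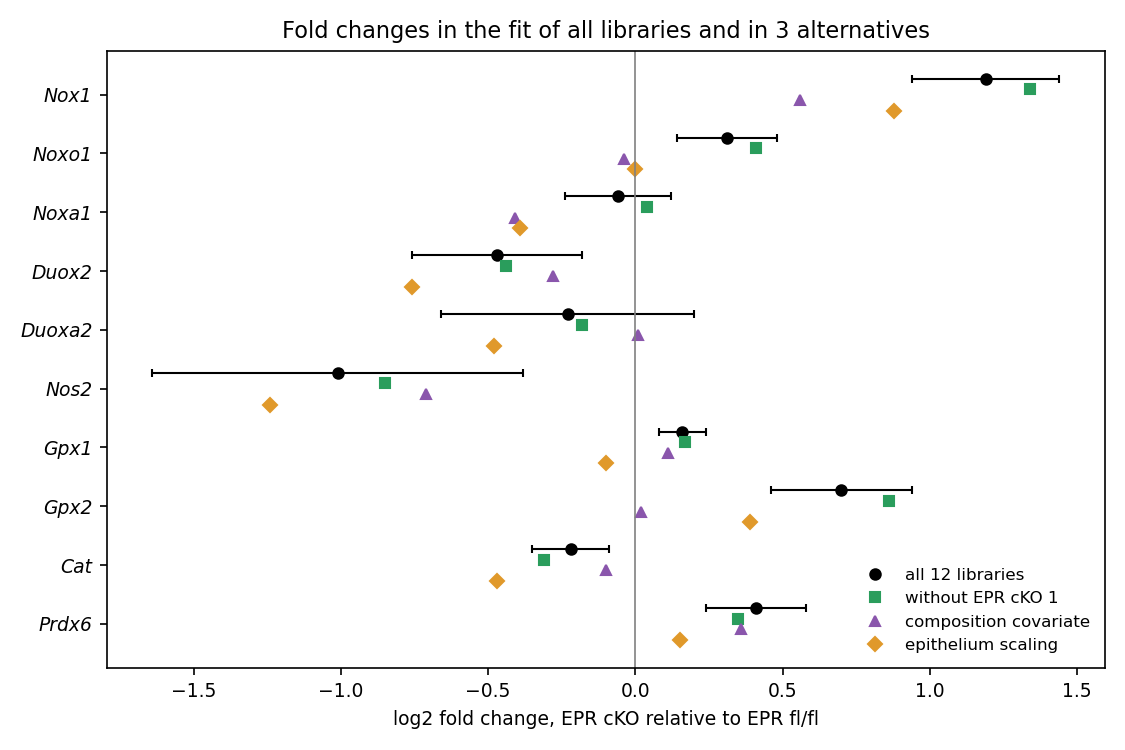
Log2 fold changes of the 10 genes (EPR cKO relative to EPR fl/fl, horizontal axis) are plotted for all 12 libraries (black circles, whiskers of 1 SE) and for 3 alternatives. Nox1 stays right of 0 in all 4 fits, from 0.56 to 1.34, whereas Gpx2 falls from 0.70 to 0.02 with the composition covariate.

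The other genes of these pathways showed few calls. In 10 lists with 95 genes, 83 were tested, 3 were called higher and 0 lower by edgeR (3.61%, against 2.46% of all genes), 14 were higher and 6 lower at an unadjusted p under 0.05, and the median log2 fold change was 0.06. DESeq2 called 5 higher and 1 lower, limma-voom 4 and 0, and limma-voom with quality weights 13 and 11, beside 5.72%, 3.15% and 20.5% of all genes in the same order. The called genes were Maff and Nfe2l2 of the NRF2 pathway and Glrx5 of the glutathione system. Nfe2l2, which encodes NRF2, the transcription factor of the antioxidant response, ran from 179 to 212 CPM in EPR fl/fl and from 219 to 273 CPM in EPR cKO (log2 fold change 0.31, SE 0.07, adjusted p = 0.0341). Maff, a small MAF protein that pairs with NRF2, went from 10.9 ± 3.10 to 18.2 ± 1.78 CPM (0.74, SE 0.16, adjusted p = 0.0339). Glrx5, a mitochondrial glutaredoxin of iron-sulfur cluster assembly, went from 33.4 ± 2.79 to 42.0 ± 2.86 CPM (0.33, SE 0.07, adjusted p = 0.0322). In each of these 3 genes, named because they were called on the same values, all 6 EPR cKO libraries lay above all controls. Of all genes tested, 2.47% had groups that did not overlap, in either direction. None of the 3 was called with the composition covariate, under which 0 genes of the lists passed and 2.03% of all genes did. With 1 library left out, 0 genes of the lists were called higher in 9 of the 12 fits, while 13 were called higher and 11 lower without EPR cKO 1, where 21.8% of all genes were called.

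The NRF2 list had 12 of 13 genes with higher means (median log2 fold change 0.19), among them Gstm1, a glutathione transferase (0.19, adjusted p = 0.551). The 1 gene of this list with a lower mean was Hmox1, at −0.60 (SE 0.25, adjusted p = 0.233 by edgeR). At an unadjusted p under 0.05 in edgeR, 4 of the 13 were higher and 1 lower. Of all 15952 genes tested, 8431 had higher means. The NRF2 list shares genes with the list of peroxiredoxins and thioredoxins and with the glutathione list, so that these lists are not independent. In the list of peroxiredoxins and thioredoxins 10 of 11 genes had higher means (median 0.19) and 0 were called, and 5 were higher at an unadjusted p under 0.05. DESeq2 and limma-voom called 0 of them, and limma-voom with quality weights called 5, beside 20.5% of all genes. Its most abundant genes per length were Txnip, the inhibitor of thioredoxin (0.00, adjusted p = 0.987), and Txn1, thioredoxin itself, at 310 ± 58.9 against 435 ± 85.3 CPM (0.49, adjusted p = 0.124). In the glutathione list 11 of 14 genes had higher means (median 0.12), with Pgd of the pentose phosphate pathway, which yields NADPH, at 178 ± 19.9 against 231 ± 26.5 CPM (0.37, adjusted p = 0.0577), and Gpx4, the peroxidase of membrane lipids, at 0.03. The 3 with lower means were Gpx7 at −0.77 (adjusted p = 0.213 by edgeR), Gpx8 at −0.69 (0.38) and Gpx3 at −0.35 (0.56). At an unadjusted p under 0.05 in edgeR, 4 of the 14 were higher and 1 lower. Without EPR cKO 1, Gpx3, Gpx7 and Gpx8 were called lower and 5 genes of this list higher, beside 21.8% of all genes. The 4 superoxide dismutase genes had a median of 0.11, and cytosolic Sod1 stood at 0.13 and its copper chaperone Ccs at 0.13. The 6 genes of selenoprotein synthesis had a median of 0.08, with Sephs2 at 0.07 and Pstk at 0.08, and the 10 peroxisome genes had a median of 0.01, with the oxidase Hao2 at −0.21. Under scaling to the epithelium markers, which is described below and shifted the median of all genes to −0.25, the medians were −0.12 for the NRF2 list, −0.09 for peroxiredoxins and thioredoxins, −0.16 for the glutathione list and for the dismutases, −0.20 for selenoprotein synthesis and −0.25 for the peroxisome. With the composition covariate the median of all genes was 0.01. The NRF2 list was then at −0.00, peroxiredoxins and thioredoxins at −0.00 and the glutathione list at 0.01. The dismutases were at 0.00, selenoprotein synthesis at −0.05 and the peroxisome at −0.07.

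Of 9 tested NADPH oxidase genes beside the 10, 0 were called by edgeR, DESeq2 or limma-voom with or without quality weights. At an unadjusted p under 0.05 in edgeR 1 was higher and 0 were lower. Lower means were found for 7 of them, with a median of −0.21 that was −0.08 without EPR fl/fl 6. The 2 with higher means were the most abundant per length, the GTPase gene Rac1 (0.18, adjusted p = 0.22) and Cyba, which encodes the p22phox partner of NOX1 (0.21, adjusted p = 0.378). The list of nitric oxide synthases and arginine genes had a median of −0.22 over 9 tested genes and 0 called by edgeR, with 1 higher and 2 lower at an unadjusted p under 0.05. DESeq2 called 1 higher and 1 lower, limma-voom 0, and limma-voom with quality weights 1 higher and 4 lower. These tools called 5.72%, 3.15% and 20.5% of all genes in the same order. Its most abundant genes per length were Nosip at 0.01 and the citrulline-recycling enzyme gene Ass1 at −0.27. The genes with the smallest p were Arg2, the mitochondrial arginase, at −0.55 (adjusted p = 0.0664 by edgeR), Gch1, which makes the cofactor of nitric oxide synthases, at 0.60 (0.0847), and Arg1, the cytosolic arginase, at −1.25 (0.143). This list rested on EPR cKO 1. Without that library its median was −0.65 and 7 of the 9 genes were called, Asl and Gch1 higher and Nos1, Nos3, Arg2, Ass1 and Slc7a2 lower, beside 21.8% of all genes. With the composition covariate its median was 0.01 and 0 were called. The 2 tested haem peroxidases, Lpo and Pxdn, stood at −0.44 (adjusted p = 0.411) and −0.61 (0.403). Of the cytokine-induced genes 9 were tested, with a median of −0.20 that was 0.09 without EPR fl/fl 6. By edgeR 0 were called, and 0 were higher and 2 lower at an unadjusted p under 0.05. DESeq2 and limma-voom called 0, and limma-voom with quality weights called 2 lower, beside 20.5% of all genes in either direction. Reg3b, an antimicrobial lectin gene, stood at 1.49 (SE 0.75, adjusted p = 0.31). It ran from 65.4 to 427 CPM in EPR fl/fl and from 142 to 2917 CPM in EPR cKO, where 1 library lay above all controls. The acute-phase gene Saa1 stood at −0.63 (SE 0.24, adjusted p = 0.195). Il17a was at 0 in every library.

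**Figure D4:**
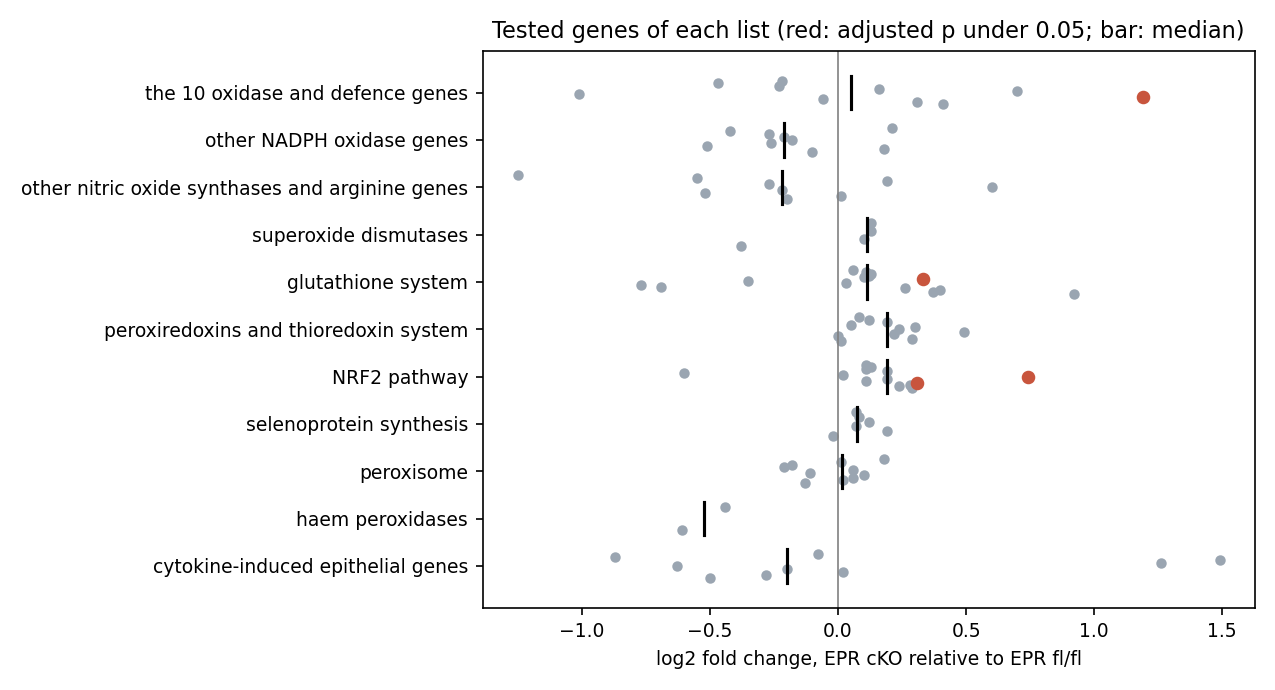
Each point is the log2 fold change (EPR cKO relative to EPR fl/fl, horizontal axis) of 1 tested gene, by list (rows), with red for an adjusted p under 0.05 and a bar at the median of the list. Red points are Nox1 in the top row, Glrx5 in the glutathione row and Nfe2l2 and Maff in the NRF2 row.

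Markers of cell types moved beside these genes. The composition score, the mean log2 CPM of 11 epithelium markers minus that of 8 smooth muscle markers, went from 1.28 ± 0.28 among controls to 2.5 ± 1.35 among EPR cKO libraries (SD, n = 6, difference 1.22, exact permutation p = 0.0563). It ran from 0.99 to 1.73 in EPR fl/fl and from 2.07 to 3.74 in 5 EPR cKO libraries, and was 0.05 in EPR cKO 1, without which the difference was 1.71 (exact permutation p = 0.00433, the smallest that 5 against 6 libraries can give). All 11 epithelium markers had higher means in EPR cKO (median log2 fold change 0.25) and all 8 smooth muscle markers lower (median −0.54). In edgeR 0 of the 19 were called and 4 epithelium markers had an unadjusted p under 0.05. DESeq2 called 1 epithelium marker, beside 5.72% of all genes. With quality weights limma-voom called 3 epithelium and 8 smooth muscle markers, beside 20.5% of all genes. All 9 goblet cell markers were lower (median −0.80), and 6 were called lower by edgeR, beside 1.57% of all genes.

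In the fit scaled to the epithelium markers in place of TMM, a setting chosen after seeing the data, Nox1 was at 0.88 (adjusted p = 0.0422) and the other 9 genes were not called, with Noxo1 at −0.00, Gpx1 at −0.10 and Gpx2 at 0.39. The share of all genes called higher was then 0.0752%, and 2.42% were called in either direction.

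Over the 12 libraries with group means removed, the score correlated with Nox1 (r = 0.82, rho = 0.57, permutation adjusted p = 0.03 and 0.0941), with Noxo1 (r = 0.76, rho = 0.57, 0.03 and 0.0941) and with Gpx2 (r = 0.89, rho = 0.60, 0.0251 and 0.0941). These relations rested on EPR cKO 1, without which r was 0.28, 0.25 and 0.49. Within EPR fl/fl r was −0.34 for Nox1, 0.17 for Noxo1 and 0.10 for Gpx2, and within EPR cKO 0.96, 0.93 and 0.94 (n = 6 each). Every EPR cKO library but EPR cKO 1 had a score above all controls, so that score and genotype largely coincide. Estimates with the covariate lean on EPR cKO 1 and cannot tell composition and genotype apart. The part of tissue composition in the higher Nox1 and Gpx2 of EPR cKO was not tested beyond these values and the covariate.

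**Figure D5:**
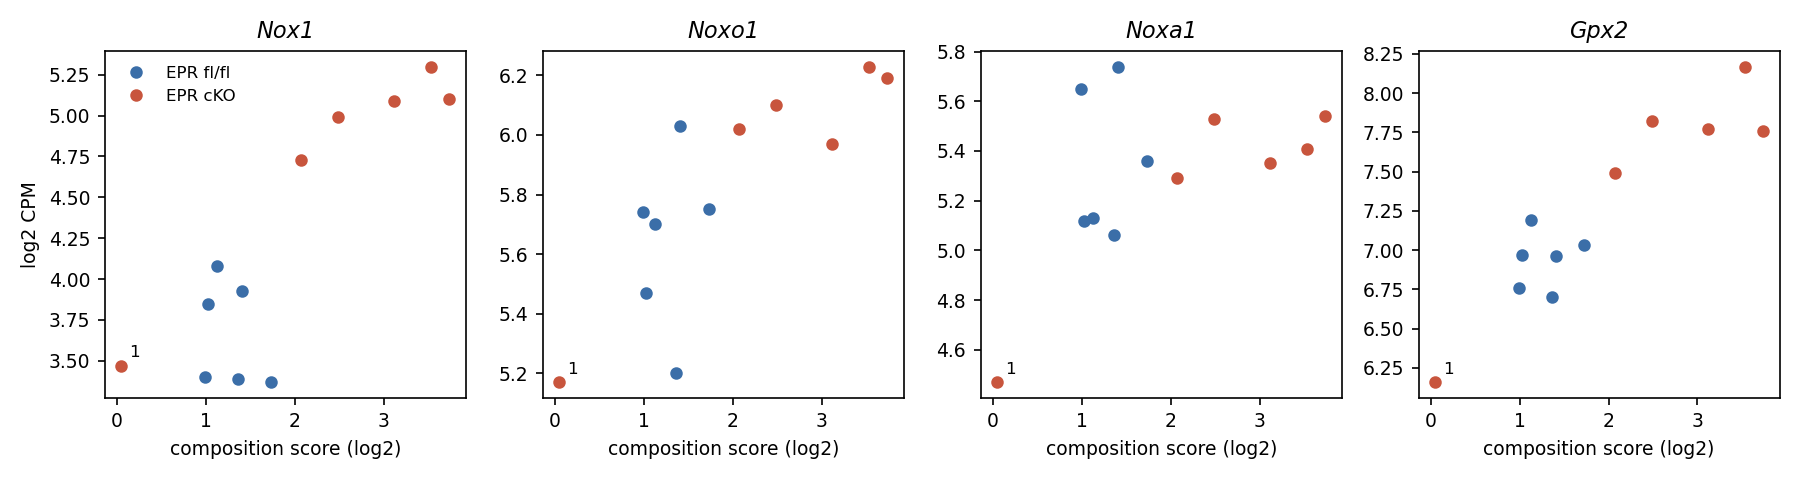
Log2 CPM of 4 genes (vertical axes, each with its own range) is plotted against the composition score (horizontal axis, log2 units) with 1 point per library, blue for EPR fl/fl and red for EPR cKO, and EPR cKO 1 marked by its number. For Nox1, the EPR fl/fl points lie low at scores of 0.99 to 1.73, EPR cKO 1 lies beside them in level at 0.05, and the other 5 EPR cKO points lie above at 2.07 to 3.74.

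Leukocytes can carry Nos2 and oxidase genes. Of 10 neutrophil markers, 8 were under 1 CPM in every library, 1 was tested and none was at 0 throughout, and their sum ran from 0.569 to 3.27 CPM among controls and from 0.879 to 3.35 CPM among EPR cKO libraries. Macrophage markers were present, with the receptor gene Csf1r averaging 41.1 ± 11.6 CPM among controls against 31.9 ± 12.9 CPM among EPR cKO libraries (SD, n = 6). The 10 macrophage markers summed to 130 to 346 CPM among controls against 107 to 253 CPM in EPR cKO, with a median log2 fold change of −0.36 and 0 called by edgeR, DESeq2 or limma-voom. At an unadjusted p under 0.05, 0 of them were lower by edgeR and 2 by limma-voom, and limma-voom with quality weights called 2, beside 20.5% of all genes. Adipocyte markers, 8 of 8 with lower means (median −1.36), summed to 431 to 1272 CPM in EPR fl/fl, to 810 CPM in EPR cKO 1 and to 161 to 326 CPM in its 5 companions. Their part in the values of Nos2, Cat or the oxidases was not tested. Of 10 colonocyte markers, 7 had higher means (median 0.26).

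The genes most like each of the 10 over the 12 libraries were found by Pearson's r of log2 CPM among all genes tested, as a description. All 12 libraries entered these r, and how far they rest on EPR cKO 1 was not tested. Spearman's rho of the same pairs ran from 0.62 (Prdx6 with Radx) to 0.99 (Gpx1 with Ube2l3). Nox1 was most like Pkp2, Car9 and Dapk2 (r = 0.97 each, and 0.93, 0.93 and 0.94 with group means removed). Gpx2 was most like Txnrd1 (r = 0.98 both with and without group means), Fam57a and Trappc10. Txnrd1, the cytosolic thioredoxin reductase gene, was itself higher in 5 of 6 EPR cKO libraries than in any control, at 236 ± 12.0 against 287 ± 54.7 CPM (log2 fold change 0.29, adjusted p = 0.23). Nos2 was most like the interferon-induced gene Rsad2 (r = 0.93), then Gm5431 and Parp14, and Duox2 was most like Leprotl1 (r = 0.91), Lfng and, after these, Nos2 (r = 0.89). Noxo1 was most like Abhd11, Kdf1 and Faah (r = 0.96 each), Noxa1 like Gstt3 and Bcl2l14 (0.94) and Dennd2d, and Duoxa2 like Sh3tc1 (0.90), Phc2 and Pofut2. Gpx1 was most like Ube2l3 (r = 0.97), Tprn and Tspo, Cat like Ephx2 (0.92), 1700020I14Rik and Acvr1c, and Prdx6 like Arhgef3 (0.88), Fbxo34 and Radx. Neither of the partners Noxo1 and Noxa1 was among the 3 genes most like Nox1, as holds for nearly every gene tested.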

How the data were processed

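RNA was taken from the whole proximal colon of 12 mice, and the authors prepared stranded libraries after removal of ribosomal RNA. Per the study's methods and the submitters' processing notes, reads were mapped to mm10 with STAR 2.5.3a and assigned to an Ensembl annotation of GRCm38 with featureCounts. The authors deposited raw counts per gene, neither normalized nor filtered, of which 15952 genes with at least 1 CPM in at least 4 libraries were tested. The strand setting and the handling of reads with several alignments are not given in the sources used here. Of the 50-base stretches of Duox2, 6.05% also occur in Duox1, and of those of Gpx2, 6.03% occur mostly in Gpx2-ps1, both at under 1 CPM.

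Counts were tested in R 4.3.3 with edgeR 4.0.16 (TMM scaling, quasi-likelihood F test, no covariate, Benjamini-Hochberg adjustment over all genes tested). The SE is the log2 fold change divided by the square root of F, without its sign. Log2 CPM used a prior count of 2, and ratios a prior count of 0.5 with the summed exon length of the table. Single measures were compared by two-sided exact permutation over 924 assignments, and correlations by 100000 shuffles within groups. Alternatives were DESeq2 1.42.0 (its size factors and its Wald test), limma-voom of limma 3.58.1 with and without quality weights, total counts, other filters, a replicate block, the composition covariate, scaling to epithelium markers and each library left out. The gene tests of edgeR, DESeq2 and limma-voom without quality weights were first tried on simulated counts. Those counts had the same dispersion for every gene, no outlying library and no shift in tissue composition. Each of the 12 libraries was matched to its column by name, and 0 columns were left over. The 10 genes and all lists were chosen with earlier results of these data known. Named genes were the 10, EPR, the called genes of each pathway list or else its 2 most abundant per length, and the 3 genes most like each of the 10. Cstf2, Tbl3, Entpd8, Duoxa1 and Duox1 were named for their position or sequence, Xist and Ddx3y for the sex of the animals, and Txnrd1, Arg1, Arg2, Gch1, Csf1r and the arginine genes called without EPR cKO 1 after their values were seen. Hmox1, Gpx3, Gpx7 and Gpx8 were named for their lower means, also after their values were seen. Some genes of the lists are not reported here by name.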

Additional observations from a re-analysis of the deposited data

Results flagged for a closer look

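In 30 sets of 6 values (10 genes, 4 ratios and the composition score in each group), a library was noted when its gap to the nearest of the other 5, divided by the whole range, passed Dixon's 95% critical value for 6 values. Chance gives about 1.5 such sets, and 3 were found, all in EPR cKO 1. Noxo1 was 36.0 CPM in that library, against 62.6 to 74.8 CPM in the other 5. Noxa1 was 22.1 CPM, against 39 to 46.5 CPM. The log2 ratio of Gpx2 to Gpx1 was −1.08, against 0.10 to 0.66. The same library had the lowest composition score (0.05) and the highest sum of smooth muscle markers (8552 CPM), and the part of these in the 3 values was not tested.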

How the results depend on the processing

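Of the 10 genes, Duox2, Nos2, Cat and Prdx6 kept their direction and stayed above 0.05 in all 10 alternatives that kept every library, and when any 1 of the 12 was dropped. With the composition covariate, which cannot tell composition and genotype apart, Nox1 was at 0.56 (adjusted p = 0.191), Noxo1 at −0.04 and Duoxa2 at 0.01. With scaling to epithelium markers, chosen after seeing the data, Noxo1 was at −0.00 and Gpx1 at −0.10. With quality weights in limma-voom, Gpx2 was at 0.79 (adjusted p = 0.00625) and Noxa1 at 0.01. The causes of these changes were not tested.

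Leaving out 1 library gave log2 fold changes of 1.10 to 1.34 for Nox1, 0.57 to 0.86 for Gpx2, 0.23 to 0.41 for Noxo1, −1.43 to −0.53 for Nos2 (−0.53 without EPR fl/fl 6), −0.12 to 0.04 for Noxa1 (0.04 without EPR cKO 1 and 0.03 without EPR fl/fl 4) and −0.56 to 0.06 for Duoxa2 (0.06 without EPR fl/fl 6). The log2 ratio difference of Gpx2 to Gpx1 ran from 0.33 to 0.68, and the composition score difference from 0.98 to 1.71, each highest without EPR cKO 1.

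Genes called higher over the whole table numbered 141 with 251 lower. There were 39 higher and 247 lower with total counts without TMM, 440 and 473 with the DESeq2 Wald test, 1372 and 1891 with quality weights, 90 and 234 with the composition covariate, 12 and 374 with scaling to epithelium markers, 54 and 243 without the filter, and 67 and 178 with the replicate block. They ran from 31 to 1178 higher and from 145 to 2273 lower with 1 library left out, with the highest counts without EPR cKO 1. In the pathway lists, 3 genes were called higher and 0 lower, against 0 higher with total counts, with the composition covariate and with epithelium scaling (which gave 2 lower), and 0 to 13 higher and 0 to 11 lower with 1 library left out. Of 170 list medians under alternatives, 12 moved by at least the median SE of the genes in the list. Of these, 7 of 10 were under epithelium scaling, 4 of 10 with the composition covariate and 1 without EPR cKO 1.

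Replicate numbers run from 1 to 6 in both groups, but same-numbered libraries did not deviate together (correlations of −0.242 to 0.34, and 2 of 6 libraries correlated best with their own number). With the replicate block, Nox1 was at 1.13 (adjusted p = 0.0253), 1 pathway gene was called higher, and the ratio differences of −1.19 (Noxa1 to Nox1) and −0.82 (Noxo1 to Nox1) had exact adjusted p-values of 0.0625. Both were at 0.0312 before adjustment, the smallest that 6 pairs allow, so that this paired test could not pass for 2 of 4 ratios. Depth limits Nos2 most, at 17 to 260 counts per library.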
